A study of Mus musculus with 12 samples.

Results

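Short interspersed elements (SINEs) lay at 791 of the 38244 open-chromatin peaks (2.07%) measured in C2C12 myotubes, cultured mouse muscle fibres formed by fusion of a myoblast line. A peak was counted as a SINE peak when its annotation placed it in a SINE, it was not annotated to a promoter or transcription start, and its mean over the 6 libraries was at least 5 tags per 10 M (M, 10 to the power of 6). These peaks held 248 elements of the MIR family, 185 of B4, 172 of B2, 143 of Alu, 20 of ID, 17 of Deu and 6 of the tRNA family. In all 798 peaks were annotated to a SINE outside promoters, and 7 fell below the minimum. The lowest peak inside, a B2_Mm2 near Card6, had a mean of 5.50 tags, and the highest outside, a PB1D7 near Gm10825, had a mean of 2.03 tags.

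SINEs are short retrotransposons copied through an RNA made by RNA polymerase III, and they depend on the machinery of LINE elements to insert. The rodent families differ in ancestry. B1, which the repeat annotation files under Alu, derives from 7SL RNA, whereas B2, ID and the far older MIR (mammalian-wide interspersed repeat, unrelated to microRNA) derive from tRNA. B4 elements such as ID_B1 and RSINE1 are composites or relatives of these. SINE copies are usually methylated and closed, and some old copies have been taken up as enhancers or as binding sites of transcription factors.

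ATAC-seq, which reads open chromatin from the cuts of the Tn5 transposase, was made from C2C12 myotubes kept for 24 h in medium conditioned by C26 cells, a mouse colon carcinoma line that causes muscle wasting, and from myotubes in control medium, with 3 libraries each. All of these cells had been differentiated in 2% horse serum for 4 to 7 days, come from 1 line that the labels give as C3H, and are labelled myoblast although the titles call them myotubes. Muscle RNA came from C57BL/6 mice that had received 500000 LLC (Lewis lung carcinoma) cells and from mice that had received PBS, taken on day 22, with 3 libraries each, 12 libraries in the series. The labels do not state whether a group's 3 libraries are separate cultures or animals, and the cells were seeded in triplicate. A p-value here therefore refers to differences among these libraries, which could be technical.

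The 3 C26 libraries held 12.8, 14.4 and 18.2 M tags and the 3 control libraries 11.2, 14.8 and 10.1 M. Of these tags 13.0, 12.0 and 13.5% fell in peaks in C26 libraries, against 27.0, 13.1 and 17.9% in control libraries, so that control 1 stood apart from the other 5. Of 10 myotube marker genes 8 had a peak and 3 (Des, Myod1 and Tnnt3) had one within 1000 bp of their start. A peak anywhere was found for 2 of 8 blood and immune, 6 of 8 colon epithelial or carcinoma, 5 of 6 endothelial and 3 of 6 adipocyte markers, and one within that distance of the start for 0, 0, 1 (Tek) and 1 (Pparg). The summed tags of the 3 myotube promoter peaks were 54.6, 55.5 and 61.8 in C26 libraries and 139, 70.5 and 100 in control libraries. The Tek peak had 20.7, 24.3 and 27.5 tags in C26 libraries and 44.7, 22.3 and 37.6 in control libraries. The Pparg peak had 17.2, 10.8 and 17.0 against 36.2, 17.9 and 18.8. On this scale the median log2 difference of all peaks with a mean of at least 5 tags was -0.54, so lower values were not particular to myotube markers.

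The peaks' own sequence was not used here, because no mm10 genome was at hand. For 7 SINE peaks, however, a RefSeq promoter window (250 bases before to 50 after an annotated gene start, GRCm38.p6) overlapped the peak, giving 8 windows. The 3 shown are the window that holds its peak's centre, the first of a pair of overlapping windows that lie wholly inside their peak, and the window at the B4-family peak with the highest mean. Capitals mark matches, on either strand, to the motifs named after each one.
Gm35636: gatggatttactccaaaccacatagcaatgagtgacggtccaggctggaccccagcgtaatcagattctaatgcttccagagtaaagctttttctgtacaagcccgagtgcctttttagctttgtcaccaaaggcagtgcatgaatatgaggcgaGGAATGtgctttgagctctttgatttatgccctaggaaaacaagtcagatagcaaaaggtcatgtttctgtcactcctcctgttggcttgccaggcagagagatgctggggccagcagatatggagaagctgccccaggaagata
Gm33315: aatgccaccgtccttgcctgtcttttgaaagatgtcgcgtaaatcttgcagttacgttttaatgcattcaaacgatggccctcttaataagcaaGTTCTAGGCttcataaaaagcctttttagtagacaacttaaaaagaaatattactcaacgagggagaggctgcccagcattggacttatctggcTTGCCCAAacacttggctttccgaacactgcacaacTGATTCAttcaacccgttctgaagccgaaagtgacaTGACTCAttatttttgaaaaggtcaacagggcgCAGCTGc
Gm13523: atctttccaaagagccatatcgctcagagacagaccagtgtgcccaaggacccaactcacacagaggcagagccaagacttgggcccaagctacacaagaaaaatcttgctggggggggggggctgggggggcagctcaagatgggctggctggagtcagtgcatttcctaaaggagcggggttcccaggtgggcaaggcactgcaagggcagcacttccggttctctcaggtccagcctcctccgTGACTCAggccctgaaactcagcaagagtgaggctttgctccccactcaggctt
The Gm35636 window lies on the plus strand at chr10:86161700-86161999 and shares 268 bases with a MIR peak at chr10:86161458-86161967. Its capitals mark 1 TEAD match (GGAATG). The Gm33315 window lies on the plus strand at chr13:52828828-52829127, inside an ID_B1 peak at chr13:52828065-52829360, and holds 2 matches to AP-1 (TGANTCA), 1 to the myogenic E-box (CAGCTG), 1 to C/EBP (TTGCNNAA) and 1 to the Pol III B box (GTTCNANNC). The Gm13523 window lies on the minus strand at chr2:32882823-32883122, shares 163 bases with an ID_B1 peak at chr2:32881075-32882985, and holds 1 AP-1 match. The repeat is annotated at a peak's centre, which for the Gm33315 and Gm13523 peaks, at 52828712 and 32882030, lies outside the window. Whether any of these matches lies within the SINE itself was not tested.

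Over all 32851 promoter windows of the same length, 7.81% held the AP-1 letters, 16.3% the E-box, 14.7% the TEAD letters, 10.8% C/EBP and 9.32% the Pol III B box. The other motifs searched were STAT (TTCNNNGAA, 8.30% of all windows), MEF2 (3.69%), NF-kB (1.63%), the CTCF core (0.557%) and GRE (0.475%). None of these 5 was matched in the 8 windows. Matches may overlap one another, and a match describes letters, not binding.

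The peaks with these 3 windows were open in both media. The Gm35636 peak had 42.5, 30.2 and 37.1 tags in C26 libraries and 42.9, 24.3 and 33.6 tags in control libraries. Its groups overlapped as deposited, where the limma log2 difference was 0.14 (adjusted p of 0.797). After median-of-ratios scaling, which centres the median difference of all peaks near 0, it was higher in C26 medium by 0.66 ± 0.15 (SE) on the log2 scale (limma adjusted p of 0.000723). The Gm33315 peak had 57.4, 48.2 and 55.2 tags in C26 libraries and 93.8, 44.9 and 51.9 in control libraries, with a log2 difference of -0.17 as deposited and 0.36 after scaling (limma adjusted p of 0.743 and 0.017). The Gm13523 peak is the one nearest Fam129b, whose values stand with the highest peaks of each family.

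SINE peaks were set beside other peaks away from promoters. Their median width was 448 bp (range 170 to 1911), against 461 bp for the 20997 intronic or intergenic peaks with no annotated repeat or CpG island, 399 bp for LINE peaks and 410 bp for LTR peaks. Their median level was 23.1 tags, against 25.4, 21.2 and 21.5 tags in those 3 sets, and per length it was 55.7 tags per kb, against 57.3, 56.4 and 54.3. All 37358 tested peaks, which include the promoters that the rule removes from SINE peaks, had medians of 522 bp and 30.1 tags. Of the SINE peaks 404 lay in introns and 387 between genes. Their median distance to the nearest start was 22.3 kb, against 28.5 kb for the peaks with no repeat, 36.1 kb for LINE and 31.7 kb for LTR peaks. They were found in all 6 of the authors' peak lists, 1 list per library, in 372 cases (47.0%), against 52.4, 45.6 and 45.5% in the same 3 sets. A median SINE peak rested on 49, 52 and 76 read ends in C26 libraries and 85, 52 and 49 in control libraries.

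SINE peaks took a larger share of the tags in peaks in C26 medium than in control medium in every library. The share was 1.66, 1.66 and 1.70% in C26 libraries and 1.51, 1.499 and 1.49% in control libraries, with no overlap. Taken relative to the tags in peaks, control 1 lay beside the other 2 controls. MIR peaks held 0.558, 0.559 and 0.578% of peak tags in C26 libraries and 0.491, 0.492 and 0.487% in control libraries. Alu peaks held 0.333, 0.337 and 0.336% in C26 libraries and 0.289, 0.294 and 0.293% in control libraries, and B4 peaks 0.342, 0.343 and 0.350% against 0.318, 0.312 and 0.308%. In these 3 families, too, the groups did not overlap.

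In the B2 and ID families the groups overlapped. B2 peaks held 0.318, 0.320 and 0.333% of peak tags in C26 libraries and 0.319, 0.306 and 0.307% in control libraries, with control 1 above C26 1. ID peaks held 0.0447, 0.0447 and 0.0447% in C26 libraries and 0.0451, 0.0440 and 0.0443% in control libraries. The larger share was not particular to SINEs. Peaks in introns or between genes with no annotated repeat or CpG island, 20997 of them, held 47.9, 48.2 and 49.0% of peak tags in C26 libraries and 44.8, 44.8 and 44.2% in control libraries.

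**Figure D1:**
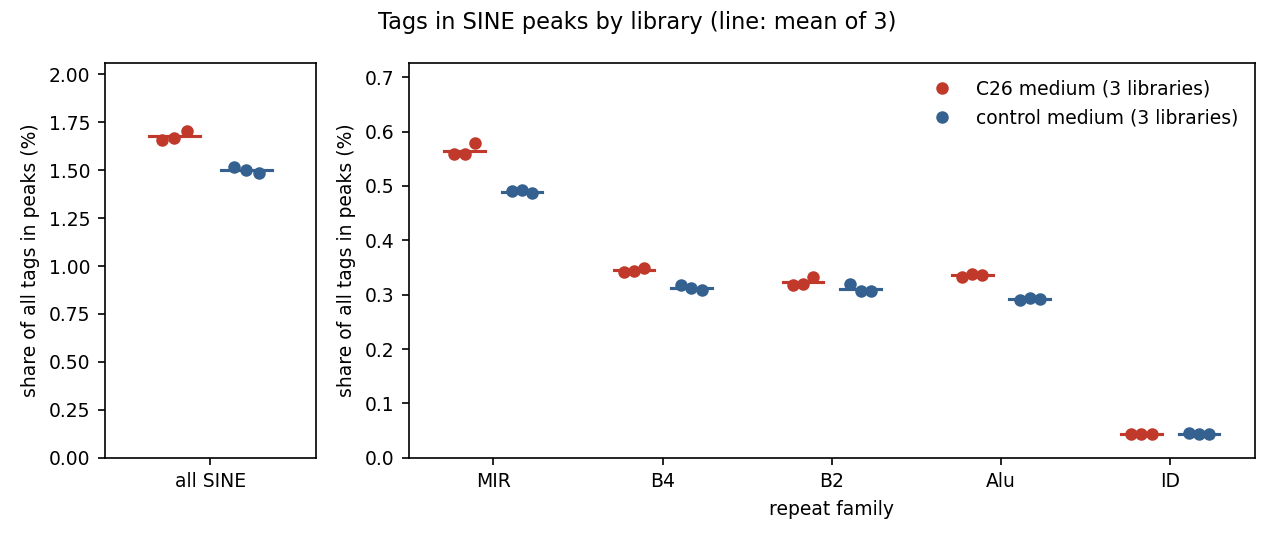
Share of all tags in peaks (%, y axis) that fell in SINE peaks and in 5 repeat families (x axis), with 1 point per library and a line at the mean of 3. The C26 libraries, at 1.66 to 1.70%, lie above the control libraries, at 1.49 to 1.51%, for all SINE peaks, and the groups overlap for B2 and ID.

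Individual SINE peaks were compared between C26 and control medium with limma over all tested peaks, on log2(tags + 1) as deposited. At an adjusted p under 0.05, 9 SINE peaks were higher and 18 lower in C26 medium. The share higher was 1.14% of SINE peaks, beside 1.15% of all tested peaks, and the share lower was 2.28%, beside 1.88%. Both are near the background. The median log2 difference was -0.41 over SINE peaks and -0.54 over all tested peaks.

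Because the median of all tested peaks lay well below 0, values were also scaled by the median of ratios, which sets the median difference of all tested peaks to -0.02. The factors were 0.841, 0.785 and 0.891 in C26 libraries and 1.81, 0.852 and 1.16 in control libraries, so control 1 was divided most. After this scaling 169 SINE peaks (21.4%) were higher and 59 (7.46%) lower in C26 medium (limma adjusted p under 0.05), with a median log2 difference of 0.10. Over all tested peaks 17.1% were higher and 12.7% lower. All 9 higher and all 18 lower calls made as deposited were among the scaled calls. The part of control 1 in the deposited differences was not tested beyond leaving it out.

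The comparison with all tested peaks, which include promoters, differs from one with peaks of the same kind of place. Among the 20997 intronic or intergenic peaks with no repeat or CpG island, 23.1% were higher and 9.22% lower after scaling, with a median log2 difference of 0.09. SINE peaks, at 21.4 and 7.46%, were close to these. Of 941 LINE peaks 27.2% were higher and 6.59% lower, and of 1762 LTR peaks 25.8% were higher and 7.32% lower. Of 232 simple-repeat peaks 12.5% were higher and 12.1% lower.

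Single libraries moved the deposited counts strongly. Without control 1 the counts were 51 higher and 34 lower SINE peaks, and without control 2 they were 14 and 325. Without control 3 they were 5 and 0, and without C26 1, 2 or 3 they were 4, 5 or 3 higher and 0 lower. The scaled counts ranged from 142 to 162 higher and from 36 to 51 lower over the same 6 fits, with the 36 reached without control 3.

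After scaling the share of peaks called ranged widely between families, which were not tested against each other. Of MIR peaks 68 (27.4%) were higher and 15 (6.05%) lower, of Alu peaks 33 (23.1%) and 9 (6.29%), and of B4 peaks 37 (20%) and 13 (7.03%). Of B2 peaks 21 (12.2%) were higher and 16 (9.30%) lower, and of ID peaks 2 (10%) were higher and 5 (25%) lower. Of the 17 Deu peaks, 15 of them in the ancient repeat AmnSINE1, 7 were higher and 0 lower, and of the 6 tRNA-family peaks 1 was higher and 1 lower. The median log2 differences after scaling were 0.14 in MIR, 0.11 in B4, 0.10 in Alu, 0.03 in B2 and -0.12 in ID. As deposited the calls were 6 higher and 7 lower in MIR, 3 and 3 in B4, 0 and 4 in B2 and 0 and 3 in Alu. They were 0 and 0 in ID, 0 and 0 in Deu and 0 and 1 in the tRNA family. Beside these, 17.1% of all tested peaks were higher and 12.7% lower after scaling, and 1.15 and 1.88% as deposited.

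**Figure D2:**
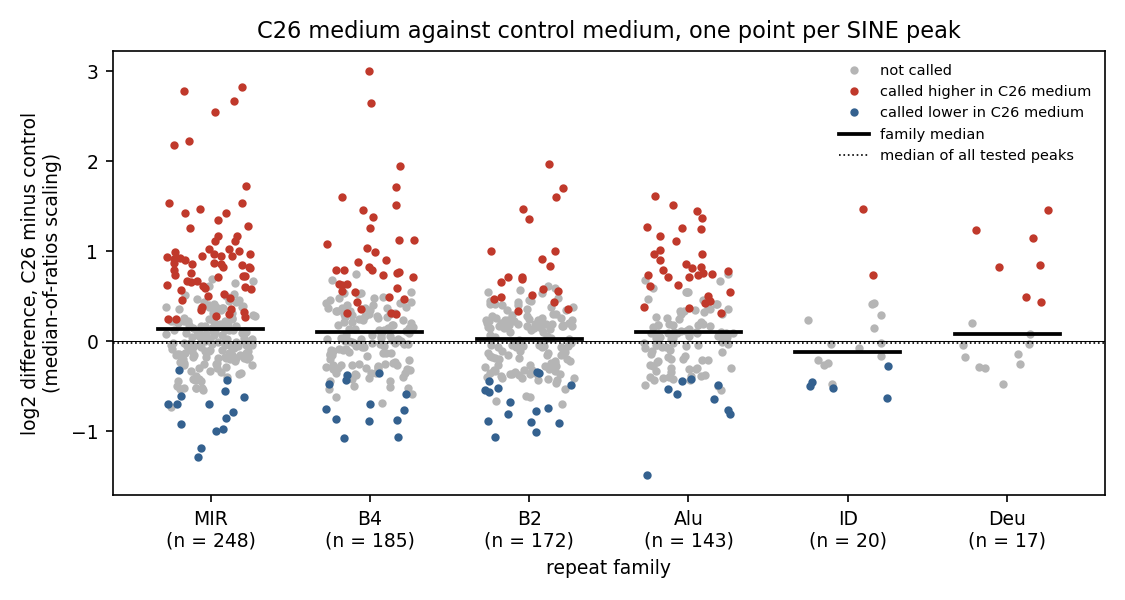
Log2 difference between C26 and control medium after median-of-ratios scaling (y axis) for each SINE peak, by repeat family (x axis, with the number of peaks), coloured by limma call at an adjusted p under 0.05. Solid lines mark family medians, from 0.14 in MIR to -0.12 in ID, and the dotted line marks the median of all tested peaks at -0.02.

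Within the families the counts varied between named repeats, which were not tested against each other. For comparison, 17.1% of all tested peaks were higher and 12.7% lower after scaling. Among intronic or intergenic peaks with no repeat or CpG island the shares were 23.1 and 9.22%. Among MIR repeats 25 of 68 MIR, 16 of 49 MIR3 and 13 of 48 MIRc peaks were higher after scaling, but 14 of 83 MIRb peaks, and 3, 6, 1 and 5 were lower. In the Alu family 21 of 79 B1 peaks were higher and 4 lower, and 12 of 64 peaks in PB1, its older relatives, were higher and 5 lower. In B4, 12 of 54 B4A, 9 of 34 RSINE1, 10 of 55 ID_B1 and 6 of 42 B4 repeats were higher, and 4, 5, 3 and 1 were lower. In B2, 7 of 55 B2_Mm2, 7 of 58 B3 and 7 of 45 B3A peaks were higher, and 6, 6 and 3 were lower. Of the 7 ID4_ peaks, 1 was higher and 4 were lower.

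Calls were also counted by place, distance and level, in SINE peaks only. Over all SINE peaks 21.4% were higher and 7.46% lower after scaling, and over all tested peaks 17.1 and 12.7%. Whether other peaks differ by place, distance or level in the same way was not tested. After scaling 91 of 387 intergenic SINE peaks were higher and 27 lower, and 78 of 404 intronic ones were higher and 32 lower. Within 10 kb of a start 36 of 205 peaks (17.6%) were higher and 15 lower, and from 10 to 50 kb 73 of 375 (19.5%) were higher and 33 lower. From 50 to 200 kb 53 of 184 (28.8%) were higher and 8 lower, and beyond 200 kb 7 of 27 were higher and 3 lower. By level, 77 of the 264 SINE peaks in the upper range of mean tags were higher and 25 lower, against 44 and 22 of 263 in the middle and 48 and 12 of 264 in the lower range. The median log2 differences after scaling were 0.12 in the upper, 0.11 in the middle and 0.05 in the lower range. As deposited the upper range held 1 higher and 4 lower, the middle 4 and 9, and the lower 4 and 5.

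**Figure D3:**
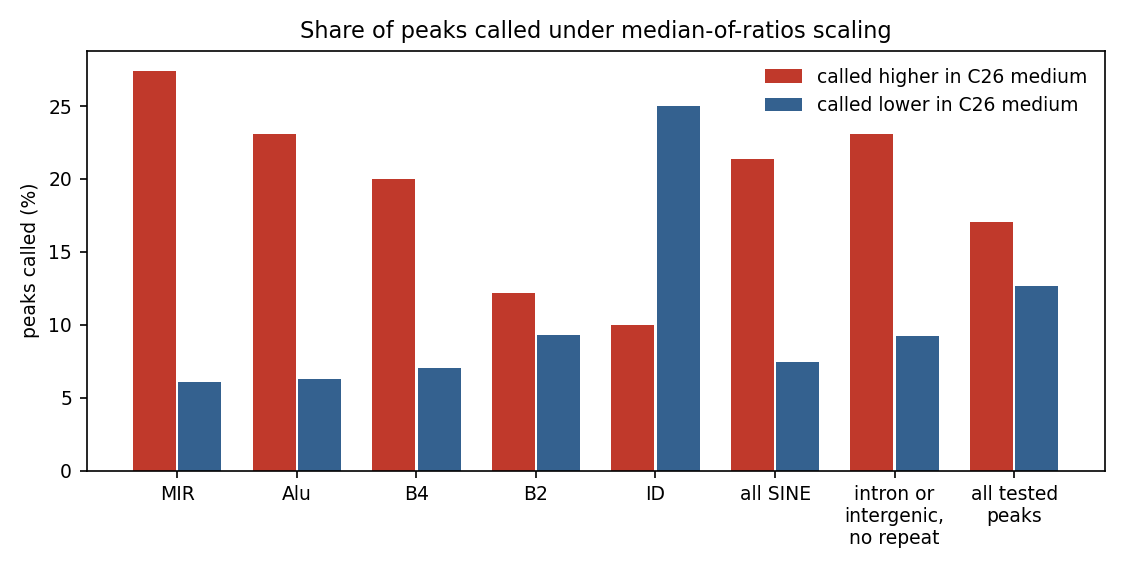
Percentage of peaks called higher and lower in C26 medium after median-of-ratios scaling (y axis) in 5 SINE families, in all SINE peaks, in intronic or intergenic peaks with no repeat or CpG island, and in all tested peaks (x axis). The bars of all SINE peaks, 21.4% higher and 7.46% lower, are close to those of the intronic or intergenic peaks, 23.1 and 9.22%.

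The authors' own peak calls divided the SINE peaks further. In 22 of the 791 SINE peaks only lists of C26 libraries held the peak, and in 17 only lists of control libraries did. Among all 37358 tested peaks the numbers were 868 and 637. These lists came from the same libraries as the tags, so the grouping itself favours the direction of the calls. The counts are given only as a description and not as a result about SINEs. Of the 22, 20 were higher after scaling and 0 lower, and of the 17, 0 were higher and 7 lower. Calls were not counted for the other tested peaks divided in this way.

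The largest rise among SINE peaks lay in an intron of Adk, which encodes adenosine kinase, the enzyme that turns adenosine into AMP. This B4A peak, in intron 6 of 10 at chr14:21272589-21272932 (mm10), had 37.9, 32.97 and 42.0 tags in C26 libraries and 7.15, 4.73 and 5.44 tags in control libraries. All C26 libraries lay far above all control libraries, and the peak was in all 3 C26 peak lists and in 0 control lists. Here and below, the lists came from the same libraries as the tags and are no separate evidence. As deposited, C26 libraries lay above all controls in 30 of 791 SINE peaks and 1210 of 37358 tested peaks. The limma log2 difference was 2.52 ± 0.43 (SE) as deposited, with an adjusted p of 5.56e-06, and 3.00 ± 0.24 after scaling.

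The next 3 rises were all in MIR3 repeats between genes. The peak at chr7:98574844-98575428 lay 80.9 kb from the start of Lrrc32, whose product GARP holds latent TGF-beta at the cell surface. It had 65.2, 46.9 and 62.9 tags in C26 libraries and 11.6, 10.8 and 9.89 tags in control libraries (log2 difference 2.32 ± 0.40 as deposited and 2.82 ± 0.19 scaled, SE). The peak at chr13:37628912-37629816 lay 197 kb from Rreb1, a zinc finger factor downstream of Ras, and had 37.1, 35.8 and 40.4 tags in C26 libraries and 9.38, 4.73 and 7.41 in control libraries (2.28 ± 0.43 and 2.78 ± 0.23). The peak at chr13:102319526-102320135 lay 374 kb from Cd180, a Toll-like receptor homologue of B cells, and had 29.7, 26.7 and 34.9 tags in C26 libraries and 5.81, 5.74 and 5.93 in control libraries (2.19 ± 0.44 and 2.67 ± 0.26). In all 3 the groups were far apart, and 0 control lists held the peaks. A gene is named here as the nearest start, and at these distances no link between peak and gene was measured.

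The other 4 of the 8 largest rises lay in ID_B1, MIR, MIRb and MIRc repeats. An ID_B1 peak 29.5 kb from Gm5148, at chr3:37753738-37754013, had 11.3, 12.2 and 14.6 tags in C26 libraries and 5.81, 0 and 3.46 in control libraries. The 0 in control 2 allows up to 1.01 tags, the value of 3 read ends there. A MIR peak 320 kb from Gm36595, at chr10:56752222-56752546, had 18.3, 13.5 and 19.5 tags in C26 libraries and 7.60, 2.03 and 1.98 in control libraries. A MIRb peak in intron 8 of 34 of Myo3b, an unconventional myosin of sensory cells, had 18.3, 18.4 and 37.9 tags in C26 libraries and 9.83, 3.71 and 6.92 in control libraries. A MIRc peak 2.50 kb from the start of Ip6k3, an inositol hexakisphosphate kinase found mainly in skeletal muscle, had 32.4, 24.3 and 34.6 tags in C26 libraries and 14.3, 5.06 and 8.90 in control libraries. None of these groups overlapped, and the log2 differences were 2.13, 2.07, 1.72 and 1.68 as deposited (limma adjusted p of 0.00402, 0.00257, 0.00934 and 0.00814). The remaining deposited rise, an ID_B1 with Usp43 as nearest start, is named because it completes the 9. It lay in intron 9 of 13 of Cfap52, 12.2 kb from the start of Usp43. Its log2 difference was 1.45 as deposited and 1.95 scaled.

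The largest fall lay in a PB1 peak 32.8 kb from Acadl, which encodes the long-chain acyl-CoA dehydrogenase of mitochondrial fatty acid oxidation. The peak, at chr1:66895821-66896401, had 5.07, 2.08 and 4.94 tags in C26 libraries and 21.5, 12.5 and 20.3 tags in control libraries. The groups did not overlap, and 0 C26 and 3 control lists held the peak. Such a separation was common as deposited, with C26 libraries below all controls in 187 of 791 SINE peaks and 12689 of 37358 tested peaks. It fell by 1.95 on the log2 scale as deposited (SE 0.47, limma adjusted p of 0.00448) and by 1.49 after scaling (SE 0.34).

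Other falls lay in old MIR repeats and in RSINE1. A MIRb peak 86.2 kb from Ddx18, an RNA helicase of ribosome assembly, had 5.46, 5.21 and 5.22 tags in C26 libraries and 32.2, 12.2 and 21.8 in control libraries. A MIRb peak in intron 5 of 7 of Cpq, a secreted peptidase, with 1700084J12Rik as nearest start, had 12.1, 7.29 and 11.0 tags in C26 libraries and 49.2, 27.7 and 29.7 in control libraries. In both the C26 libraries lay below all controls, and the log2 differences were -1.77 and -1.69 as deposited and -1.28 and -1.19 scaled. An RSINE1 peak 3.73 kb from Ptgis, the prostacyclin synthase, had 5.85, 10.8 and 12.4 tags in C26 libraries and 36.2, 27.0 and 26.2 in control libraries (-1.57 and -1.07). A MIR peak in intron 4 of 14 of Kif26b, a kinesin family member, had 17.6, 10.8 and 15.9 tags in C26 libraries and 50.04, 38.1 and 40.04 in control libraries (-1.49 and -0.98).

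The other 3 of the 8 largest falls were a B3 183 kb from 4921525O09Rik, a MIR 3.14 kb from Galnt9 and an RSINE1 39.4 kb from Ano1. Their deposited log2 differences were -1.57, -1.50 and -1.55. The Ano1 peak, near the gene of a calcium-activated chloride channel, had 4.68, 8.33 and 2.75 tags in C26 libraries and 34.4, 10.8 and 10.9 in control libraries, and its high value was that of control 1. After scaling its groups overlapped (log2 difference -1.06, limma adjusted p of 0.0166). The remaining 10 deposited falls lay near Loxl1, Atp23, Noc3l, Eif2s3x, Cnn3, Eya2, Ttc39b, Fads6, Arid4a and Tll2, named to complete the 18, and with the other falls they spanned log2 differences from -1.95 to -1.22.

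Of these 16 peaks, those near Adk, Lrrc32 and Rreb1 were called as deposited in all 6 fits that left out 1 library. The Cd180 peak was called in 5 and lost without C26 3, and the other 12 were called in 1 to 3 of 6. After scaling 15 of the 16 were called in all 6 such fits, and the Ano1 peak in 4, being lost without control 1 and without C26 3. None of the 16 changed direction in any of these fits. They were chosen as the largest called differences of the same libraries, so a change of direction was unlikely and its absence adds no support.

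**Figure D4:**
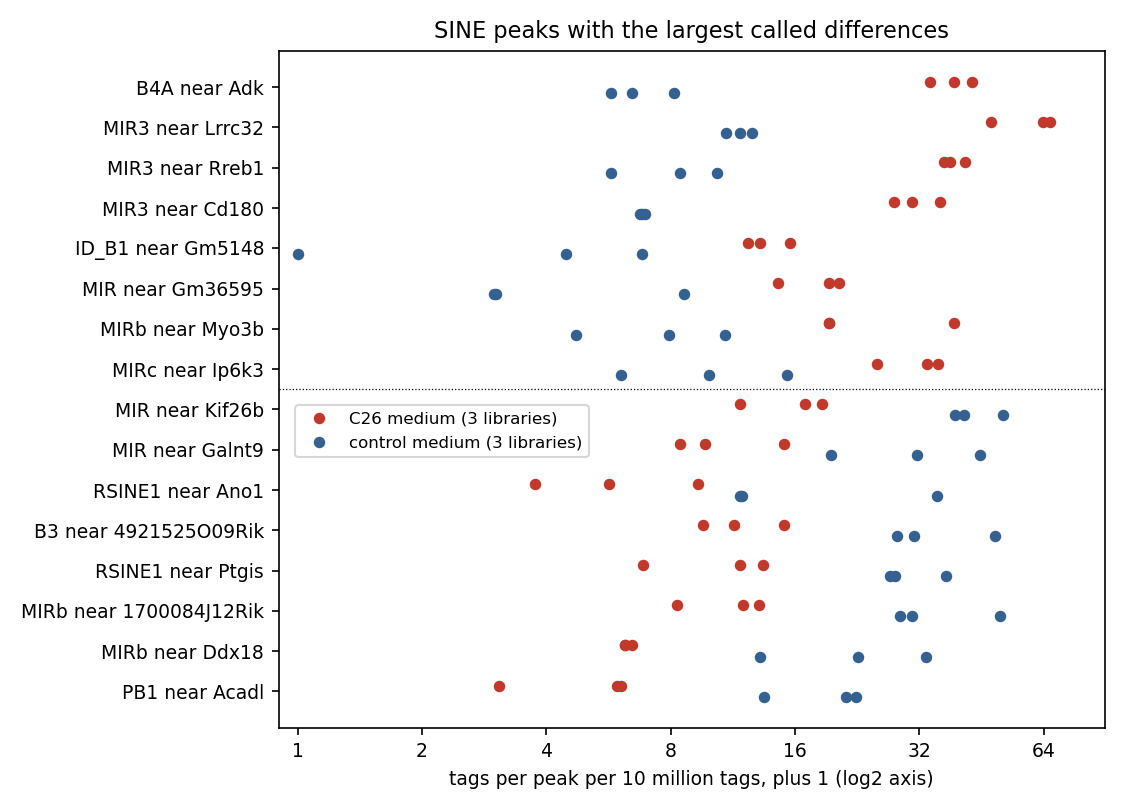
Tags per peak per 10 M tags plus 1 (x axis, log2 scale) in each library for the 8 SINE peaks with the largest called rises (above the dotted line) and the 8 with the largest called falls (below it), named by repeat and nearest gene (y axis). In all 16, which were chosen for their large called differences, the 3 C26 libraries and the 3 control libraries do not overlap as deposited. Among all 37358 tested peaks the C26 libraries lay above all controls in 1210 and below all controls in 12689 as deposited. Among the 791 SINE peaks they did so in 30 and 187.

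The SINE peaks with the highest means were open in both media. The highest of all, a B1_Mm near Ly6c2 at chr15:75085504-75087038, had 279, 273 and 235 tags in C26 libraries and 296, 277 and 304 in control libraries. Its deposited log2 difference was -0.16 (limma adjusted p of 0.700) and its scaled one 0.37 (adjusted p of 0.014), so the direction turned with the scaling, and the scaled call was lost without control 1, C26 1 or C26 2. Control 1 was not high in this peak as it was in others. How reads that match several copies of a young repeat such as B1_Mm were placed is not stated in the labels or headers used here.

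The highest B2 peak, a B2_Mm2 near Mascrna, had 156, 154 and 171 tags in C26 libraries and 311, 159 and 225 in control libraries, and the groups overlapped. Its log2 difference was -0.48 as deposited and 0.06 scaled, with limma adjusted p of 0.264 and 0.656. The highest B4-family peak, an ID_B1 in intron 1 of 13 of Fam129b (Niban2 in RefSeq), whose end holds the Gm13523 window, had 137, 136 and 153 tags in C26 libraries and 303, 152 and 209 in control libraries (-0.58 and -0.05, adjusted p of 0.190 and 0.693). The highest MIR-family peak, a MIRc in intron 1 of 18 of Ehbp1l1, had 197, 169 and 187 tags in C26 libraries and 325, 182 and 246 in control libraries (-0.41 and 0.12, adjusted p of 0.327 and 0.284). These 3 passed the test neither as deposited nor after median-of-ratios scaling. With quantile normalization the Mascrna and Ehbp1l1 peaks were called higher, with limma adjusted p of 0.0273 and 0.000228. Without control 2 all 3 were called lower as deposited.

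In the ID family the highest peak, an ID4 in intron 1 of 57 of Tln2, which encodes the integrin adaptor talin 2, had 111, 95.4 and 113 tags in C26 libraries and 259, 136 and 186 in control libraries. The C26 libraries lay below the controls, with a log2 difference of -0.81 as deposited (limma adjusted p of 0.112) and -0.28 scaled (0.0133). The ID peak with the smallest p, an ID4_ 28.6 kb from Slc16a1, a lactate and pyruvate transporter, had 13.3, 11.8 and 11.8 tags in C26 libraries and 45.1, 17.2 and 29.2 in control libraries (-1.15, adjusted p of 0.0887, and -0.63, adjusted p of 0.0222). Both scaled calls were lost in 3 of the 6 fits without 1 library.

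Of 1073 tested peaks of any kind nearest to genes of 6 lists for muscle and wasting pathways 21 (1.96%) were SINE peaks, close to the 2.12% of all tested peaks. Of 48 myogenic and contractile genes 5 had a SINE peak (Casq1, Jph2, Mef2a, Mef2d and Tnni1), of 50 cytokine, NF-kB and AP-1 response genes 6 had 8 peaks (at Ccl2, Lifr, Nfkb1, Osmr, Runx2 and Socs1), and of 44 TGF-beta, activin and BMP genes 3 had 1 each (Acvr1b, Bmper and Smad3). Of 44 atrophy genes 3 had 1 each (Foxo6, Rptor and Sqstm1), of 52 matrix genes 2 (Col5a1 and Loxl1), and of 37 methionine cycle and DNA methylation genes 0. As deposited 0 of these 21 peaks were higher and 1, at Loxl1, was lower. After scaling 2 of 5 peaks at myogenic genes, 3 of 8 at cytokine genes and 1 of 3 at TGF-beta genes were higher, 0 of 3 at atrophy genes were called, and 1 of 2 at matrix genes was lower. That makes 6 of 21 higher (28.6%), beside 21.4% of all SINE peaks and 17.1% of all tested peaks.

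The scaled rises in these lists included peaks at Mef2a, a transcription factor of muscle genes, and Smad3, which carries TGF-beta signals to the nucleus. The AmnSINE1 peak 17.98 kb from Mef2a had 65.6, 55.5 and 59.3 tags in C26 libraries and 72.8, 35.8 and 42.0 in control libraries. Its groups overlapped as deposited through control 1 (log2 difference 0.32, limma adjusted p of 0.526) and were apart after scaling (0.85 ± 0.12, SE, adjusted p of 2.02e-07). The ID_B1 peak 52.2 kb from Smad3 had 36.3, 35.8 and 41.2 tags in C26 libraries and 48.7, 23.3 and 20.8 in control libraries (0.38, adjusted p of 0.473, and 0.90 ± 0.16, adjusted p of 1.9e-05).

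The Loxl1 peak, a MIR3 in intron 2 of 6 of this elastin cross-linking enzyme, had 49.6, 39.2 and 53.8 tags in C26 libraries and 147, 96.9 and 97.4 in control libraries. The C26 libraries lay below the controls, and the peak fell by 1.22 on the log2 scale as deposited (limma adjusted p of 0.0296) and by 0.70 after scaling. The B3A peak nearest Casq1, the calcium buffer of the sarcoplasmic reticulum, lay in intron 19 of 22 of Atp1a4 and had 6.24, 3.82 and 9.06 tags in C26 libraries and 17.4, 11.8 and 13.4 in control libraries (-1.09, adjusted p of 0.123, and -0.61, adjusted p of 0.148). The MIRb peak 76.5 kb from Osmr, the oncostatin M receptor, had 11.7, 7.29 and 12.4 tags in C26 libraries and 32.2, 18.9 and 17.3 in control libraries (-1.03, adjusted p of 0.118, and -0.53, adjusted p of 0.105). The other SINE peak nearest Osmr, a MIR3 in an intron 16.4 kb from its start and named after its values were seen, ran the other way, with 76.1, 69.8 and 76.6 tags in C26 libraries and 84.4, 34.4 and 48.4 in control libraries. Its groups overlapped as deposited (log2 difference 0.50, limma adjusted p of 0.311) and were apart after scaling (1.03 ± 0.11, SE, adjusted p of 2.37e-10).

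Several SINE peaks could share a nearest gene. The 791 peaks had 751 nearest genes, 36 of them with at least 2 SINE peaks, and Nt5c2 and Phf20 had 3 each. The 36 genes held 74 peaks, of which 21 were higher and 3 lower after scaling. Over all SINE peaks 21.4% were higher and 7.46% lower, and over all tested peaks 17.1 and 12.7%. Peaks that share a gene were not tested against the others. Of these genes 18 had a higher peak, 3 (Plekhb2, Ptgis and Rapgef1) had a lower one and 15 had none called.

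The RNA of muscle from LLC mice was set beside these peaks as another system, with another tumour and whole tissue in place of cultured fibres. In whole tissue, fewer cells of a type and less RNA per cell cannot be told apart. Of the 751 nearest genes 694 were in the RNA table and 494 had a mean of at least 1 FPKM. At a limma adjusted p under 0.05, 0 of the 494 were called, beside 0% of all 12981 tested genes. At an unadjusted p under 0.05, 47 (9.51%) of the 494 passed, against 991 (7.63%) of all.

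Among the genes nearest to named SINE peaks, Osmr had 10.0, 10.3 and 13.7 FPKM in LLC muscle and 3.53, 3.86 and 2.44 FPKM in PBS muscle. Acadl had 147, 154 and 149 FPKM in LLC muscle and 88.4, 79.7 and 93.9 FPKM in PBS muscle. In both the LLC libraries lay above all PBS libraries, with log2 differences of 1.53 and 0.78 and limma adjusted p of 0.139 and 0.153. In C26 medium the PB1 peak near Acadl was lower, and the SINE peaks nearest Osmr ran in opposite directions.

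Other nearest genes did not pass the test either, in whichever direction their values ran. Sqstm1 had 253, 283 and 355 FPKM in LLC muscle and 199, 202 and 168 in PBS muscle (log2 difference 0.64, limma adjusted p of 0.411). Foxo6 had 2.14, 0.64 and 0.79 FPKM in LLC muscle and 2.80, 3.25 and 3.36 in PBS muscle (-0.98, adjusted p of 0.422). Col5a1 had 8.57, 5.31 and 5.22 FPKM in LLC muscle and 13.1, 18.2 and 9.78 in PBS muscle (-0.99, adjusted p of 0.427). Casq1 had 1006, 752 and 825 FPKM in LLC muscle and 1607, 1338 and 1069 in PBS muscle (log2 difference -0.63, limma adjusted p of 0.531). Ptgis had 6.48, 3.81 and 1.65 FPKM in LLC muscle and 6.78, 10.4 and 9.17 in PBS muscle (-1.08, adjusted p of 0.598). Adk had 35.5, 31.3 and 28.6 FPKM in LLC muscle and 29.6, 34.8 and 36.5 in PBS muscle, and the groups overlapped (-0.08, adjusted p of 0.9998). Lrrc32 had 7.06, 12.7 and 7.70 FPKM in LLC muscle and 4.16, 6.21 and 6.50 in PBS muscle (0.59, adjusted p of 0.700).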

How the data were processed

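Of 12 libraries, 6 were ATAC-seq of C2C12 myotubes and 6 RNA-seq of mouse muscle. The ATAC values are signal, deposited by the authors as HOMER tags per merged peak, with each library set to a total of 10 M tags according to the headers. The RNA values are FPKM over exons, both strands counted, deposited after HOMER quantification, per the file headers. Tools named in the submitters' processing notes are Bowtie2, MACS2, HOMER, HISAT2 and DESeq2, and the builds GRCm38 and mm10. Versions, peak thresholds, duplicate removal and the placing of reads that match several repeats are not stated in the labels or headers used here. HOMER annotates a peak by what lies at its centre.

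From these values log2(value + 1) was tested with limma 3.58.1 (lmFit, eBayes with trend; R 4.3.3), two-sided, with Benjamini-Hochberg adjustment over the 37358 peaks with a mean of at least 5 or the 12981 genes averaging at least 1 FPKM, at 0.05. The log2(value + 1) scale understates folds of low peaks. Whole read ends, 0.5 tag each, were recovered from 100% of ATAC values within 0.1 and tested with edgeR 4.0.16. RNA depth recovered from the values was 34.0 to 40.1 M read ends. Alternatives were other pseudocounts, filters and scalings, no trend, a replicate term and leaving out each library. The limma fit without scaling was tested on simulated data that held no shift between libraries such as that of control 1. The scaled fits were not simulated. In the tables used, 0 sample columns were left unused.

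SINE peaks were named by rule: the 8 largest called rises and falls, the highest mean and smallest p per family of at least 20 peaks, and up to 3 peaks per gene list. The members, lists and rule were chosen with earlier results of these data known. Nearest genes are the authors' annotation.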

Additional observations from a re-analysis of the deposited data

How the results depend on the processing

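The counts of SINE peaks and their median depended mostly on scaling and on single libraries. The median log2 difference of SINE peaks, -0.41 as deposited, turned to 0.103 (median of ratios), 0.0212 (quantile normalization) and 0.109 (edgeR), whose all-peak medians were -0.02, -0.06 and -0.02. With median-of-ratios scaling, quantile normalization and edgeR, SINE peaks higher numbered 169, 157 and 179 and those lower 59, 83 and 58. In the same order, higher and lower were 68, 64, 69 and 15, 22, 14 in MIR; 37, 32, 40 and 13, 18, 13 in B4; 21, 20, 26 and 16, 20, 17 in B2; 33, 31, 34 and 9, 14, 8 in Alu; and 2, 2, 2 and 5, 6, 5 in ID. All tested peaks gave 6378, 5595 and 6571 higher and 4742, 5426 and 4783 lower. The cause of the shift was not tested.

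Without a filter 7 SINE peaks were higher (4 MIR, 2 B4, 1 B2) and 2 lower (1 MIR, 0 B4, 0 B2 and 1 Alu), and 283 and 212 of all peaks were higher and lower. With a mean of at least 20, 3 were higher (2 MIR, 1 B4) and 9 lower (4 MIR, 0 B4, 2 B2, 2 Alu, the rest in smaller families), with 133 and 338 of all peaks, and fewer peaks were tested. Without the trend 16 were higher (7 MIR, 5 B4, 3 B2, 1 Alu) and 44 lower (13 MIR, 11 B4, 12 B2, 5 Alu, 1 ID), with 710 and 1892 of all. At an adjusted p under 0.1, 13 SINE peaks were higher (7 MIR, 3 B4, 2 B2, 1 Alu) and 47 lower (14 MIR, 9 B4, 15 B2, 6 Alu, 2 ID), with 670 and 2825 of all.

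Leaving out each library in turn gave 3 to 51 higher and 0 to 325 lower SINE peaks (MIR 2 to 21 and 0 to 97, B4 1 to 10 and 0 to 76, B2 0 to 6 and 0 to 70, Alu 0 to 9 and 0 to 59, ID 0 to 1 and 0 to 12), and 92 to 1954 higher and 32 to 19854 lower of all peaks. The median log2 difference of SINE peaks ranged from -0.678 to -0.146. With median-of-ratios scaling, an alternative of leaving out each library chosen after seeing the data gave 142 to 162 higher and 36 to 51 lower. The median differences of all peaks moved with each, from -0.79 without control 2 to -0.26 without control 1.

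Directions of some named peaks turned. With median-of-ratios scaling, quantile normalization and edgeR, the log2 differences were 0.375, 0.529 and 0.349 at Ly6c2, 0.0557, 0.164 and 0.065 at Mascrna, 0.124, 0.255 and 0.131 at Ehbp1l1, 0.104, 0.105 and 0.119 at Jph2, 0.283, 0.204 and 0.258 at Rptor and 0.336, 0.264 and 0.341 at Acvr1b. At Fam129b it was 0.0384 with quantile normalization. Without control 1 it was 0.225 at Rptor and 0.149 at Acvr1b, and over the 6 fits their ranges were -0.516 to 0.225 and -0.438 to 0.149. With the replicate number as a block, 9 SINE peaks were higher and 16 lower as deposited, and 170 and 58 with median-of-ratios scaling; the numbers gave ATAC correlations of -0.011, 0.008 and -0.017 and so paired nothing. The RNA count stayed at 0 under every alternative run.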
